A study of Mus musculus with 2 samples.

Results

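The chemokine system was examined in the livers of mice with both copies of Yap1 (Yap+/+) and of mice with 1 disrupted copy (Yap+/-). Members were all genes on the array whose symbol marks a chemokine (Ccl, Cxcl, Cx3cl or Xcl and a number) or a chemokine receptor (Ccr, Cxcr, Cx3cr or Xcr and a number), read through probe sets annotated with exactly 1 gene. This gave 49 genes, 33 ligands and 16 receptors, of 18193 genes in all, measured by 77 of 45101 probe sets. Where a gene had more than 1 probe set, the brightest over both arrays stood for it.

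All mice were untreated, were on a C57BL/6 background and were killed on postnatal day 30. Livers of 5 mice per genotype were combined before labelling, and each pool was hybridised to 1 Affymetrix array, so every value comes from 1 pool on 1 array and genotypes were compared by size, with no test. Values are on the log2 scale as deposited, on which a difference of 1 is 2-fold, and differences are given as Yap+/- minus Yap+/+. The sources used here do not give the sex or litters of the mice, or which part of Yap1 is disrupted. The labelled tissue showed its defining transcripts, with the hepatocyte markers Alb, Apoa1, Ttr, Cps1 and Hnf4a between 12.15 and 15.09 in Yap+/+ and between 12.35 and 15.09 in Yap+/-. Yap1 itself read 9.40 in Yap+/+ and 9.24 in Yap+/-, a small difference that checks the genotype labels only weakly. The excess of 3-prime over 5-prime signal of control transcripts was larger in the Yap+/- sample, by 0.20 for beta-actin and 0.22 for Gapdh on the log2 scale, and its part in the differences below was not tested.

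Chemokines are small secreted proteins that guide leukocytes, and they are named for the spacing of their first cysteines. They act through receptors with 7 membrane-spanning helices coupled to inhibitory G proteins, while atypical receptors bind them without this signal. Some are inflammatory and are induced in macrophages, endothelium, stellate cells and hepatocytes by interferon-gamma or through NF-kappaB, and others are homeostatic and are made steadily. In the liver, ligands of CXCR3 draw T cells, CXCL1 draws neutrophils and CXCL12 retains progenitor and immune cells.

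A mean log2 value of 6 over both arrays was taken as the level from which a gene counts as measured, against a median of 4.92 over all probe set values. It was reached by 13 of the 49 members (26.5%), against 51.1% of all genes. The 13 are the CXC ligands Cxcl1, Cxcl9, Cxcl10, Cxcl11, Cxcl12, Cxcl13 and Cxcl16 and the CC ligands Ccl5, Ccl6, Ccl9, Ccl24, Ccl25 and Ccl27a. No receptor reached it. All 13 also read at least 6 on each array separately, so none was counted through 1 genotype alone. Just inside the limit lay Cxcl13 (mean 6.17), Ccl25 (6.26) and Cxcl11 (6.41), and just outside lay Ccl8 (5.97), Ccl4 (5.95) and Ccr2 (5.85).

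**Figure D1:**
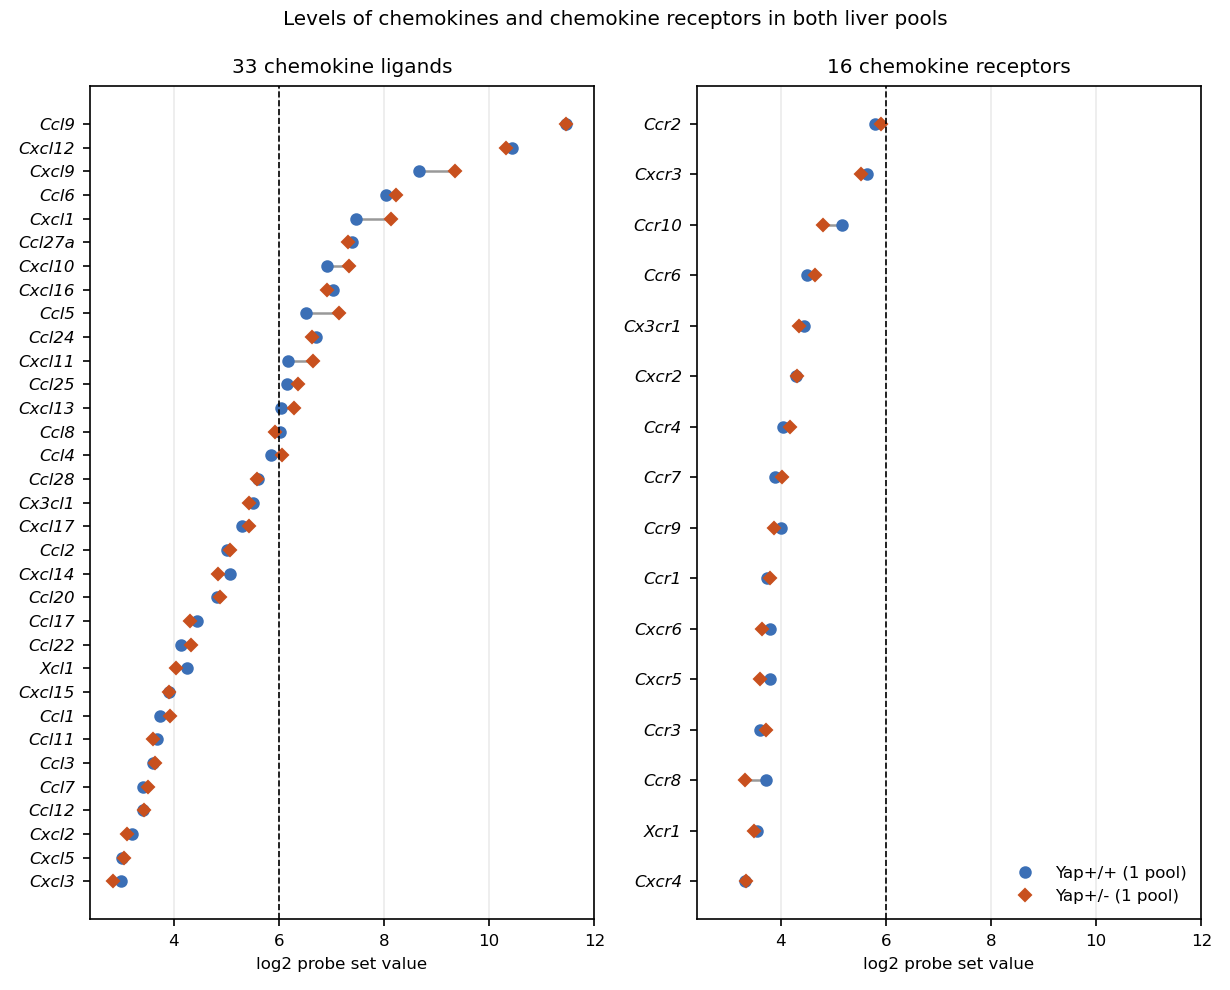
Log2 probe set values of the 33 ligands (left) and the 16 receptors (right) in the Yap+/+ pool (circles) and the Yap+/- pool (diamonds), 1 pool each, with a dashed line at 6. Genes are sorted by their mean for display only, since levels of different probe sets are not comparable. The longest gaps among measured genes are those of Cxcl9, Cxcl1 and Ccl5, with the Yap+/- value on the right, and all receptors lie left of the line.

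The inflammatory chemokines Cxcl9, Cxcl1, Ccl5, Cxcl11 and Cxcl10 read higher in the Yap+/- pool, by 0.42 to 0.68 on the log2 scale, and the other 8 measured members differed by 0.24 or less in either direction. Cxcl9, Cxcl1 and Ccl5 were at least 1.5-fold higher, by 1.60-fold, 1.59-fold and 1.54-fold. At this size 3 of 13 measured members were higher and 0 lower, against 0.699% of 9299 measured genes higher and 0.645% lower. No member differed by 2-fold, a size at which 0.0968% of measured genes were higher and 0.226% lower. Among measured genes with a mean under 10, a range that holds all members at least 1.5-fold higher and that was chosen after the values were seen, the share at least 1.5-fold higher was 0.778%. With 64 added on the linear scale only Cxcl9 stayed past 1.5-fold, and with a gene's probe sets averaged only Cxcl1 and Ccl5.

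By direction alone, 8 of the 13 were higher and 5 lower, against 48.8% of all measured genes higher. Their median log2 difference was 0.23 beside 0.00 for all measured genes. Over all 49 members it was 0.02, with 26 higher, 22 lower and 1 equal. With a gene's probe sets averaged, 10 members were measured and the median was -0.013. The differences of all measured genes had a robust SD of 0.15. In 3406 genes with a pair of measured probe sets, the differences read by the pair disagreed with a robust SD of 0.17. The first holds differences between the pools as well as noise of the arrays, the second the disagreement within the arrays, and neither says how much mice or pools of a genotype vary.

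**Figure D2:**
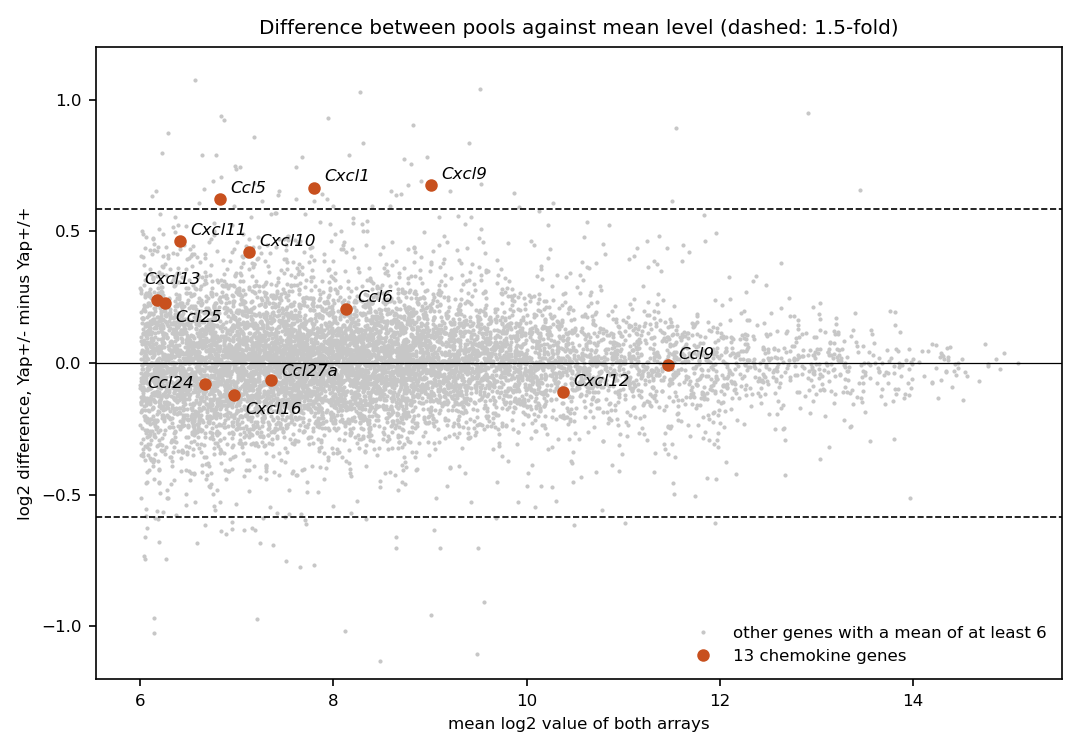
Log2 difference (Yap+/- minus Yap+/+) against the mean log2 value of both arrays for the 13 measured chemokine genes (labelled) and for other measured genes (grey), with dashed lines at 1.5-fold. Another 23 genes lie outside the plotted range. Cxcl9, Cxcl1 and Ccl5 lie above the upper line, Cxcl11 and Cxcl10 below it at 0.46 and 0.42, and Cxcl12 and Ccl9 near 0.

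The upstream sequences of 3 of the 5 ligands with the largest differences, Cxcl1, Cxcl9 and Cxcl10, are shown because the 5 are known to be induced by NF-kappaB or interferon signals and the RefSeq table used here gives windows for these 3. They are the 250 bases before the RefSeq start site (build GRCm38.p6), 5′ to 3′ on the strand of the gene, with matches to the kappaB consensus of NF-kappaB and to the core of the interferon-stimulated response element (ISRE, GAAANNGAAA) in capitals.
Cxcl1, chr5:90890995-90891244, plus strand: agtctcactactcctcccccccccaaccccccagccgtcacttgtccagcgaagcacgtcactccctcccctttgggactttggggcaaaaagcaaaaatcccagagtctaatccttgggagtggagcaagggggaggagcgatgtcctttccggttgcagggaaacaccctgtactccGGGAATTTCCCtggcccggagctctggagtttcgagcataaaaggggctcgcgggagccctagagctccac
Cxcl9, chr5:92328080-92328329, minus strand: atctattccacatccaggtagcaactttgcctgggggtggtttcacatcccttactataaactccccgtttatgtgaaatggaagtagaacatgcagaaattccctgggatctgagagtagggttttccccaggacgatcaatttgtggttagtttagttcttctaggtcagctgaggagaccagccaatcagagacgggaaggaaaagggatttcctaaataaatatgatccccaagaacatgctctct
Cxcl10, chr5:92348890-92349139, minus strand: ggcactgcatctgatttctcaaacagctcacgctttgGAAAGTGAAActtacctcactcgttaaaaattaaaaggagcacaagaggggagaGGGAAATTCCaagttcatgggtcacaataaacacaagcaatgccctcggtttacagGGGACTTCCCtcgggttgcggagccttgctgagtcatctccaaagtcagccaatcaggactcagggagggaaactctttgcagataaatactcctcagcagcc

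The Cxcl1 window holds a palindrome-like run in which kappaB matches on both strands overlap, 71 to 61 bases before the start. The Cxcl10 window holds an ISRE core 213 to 204 bases before the start and kappaB matches at 159 to 150 and 103 to 94 bases. The Cxcl9 window holds neither. Windows were matched for 9 of the 13 measured members, and a kappaB match on either strand lay in those of 3, Cxcl1, Cxcl10 and Ccl9, and an ISRE core in that of Cxcl10 alone. Over 32851 windows of this length, 3.90% hold a kappaB match and 2.98% an ISRE core. Also searched were TATAAA and the core of the interferon-gamma-activated site (GAS, TTCNNNGAA). TATAAA lay in windows of 4 of the 9 members, against 12.4% of all windows. The GAS core lay in those of 0, against 7.02%, and at such a share a count of 0 says little. Ccl9, which holds a kappaB match, differed by -0.01, and Cxcl9, which holds none in its window, by 0.68. A match is a run of letters and not a measured binding site.

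Cxcl9, Cxcl10 and Cxcl11 encode the interferon-inducible ligands of CXCR3, which draw activated T cells and natural killer cells. Cxcl9 read 8.67 in Yap+/+ and 9.35 in Yap+/-, at rank 38 from the highest difference among 9299 measured genes. Its second probe set, with a mean under the limit, read 5.77 and 5.97. Both probe sets were thus higher in the Yap+/- pool, the dimmer one by 0.20. Cxcl10 was 1.34-fold higher on its single probe set, with 6.91 in Yap+/+ and 7.34 in Yap+/-. Cxcl11 read 6.18 and 6.64, 1.38-fold higher, while its second probe set read 3.25 and 3.36, near the lowest values of the table. RefSeq lists Cxcl11 as a transcribed pseudogene on the C57BL/6J assembly, so its value is a transcript level only. All 3 ligands were higher in Yap+/-, at ranks 38, 183 and 126.

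The receptor of these ligands, Cxcr3, carried on activated T cells, read 5.64 in Yap+/+ and 5.53 in Yap+/-, under the limit on both arrays, where a change could be missed.

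Cxcl1, the mouse counterpart of the GRO chemokines that draw neutrophils through CXCR2, was higher on all 3 of its probe sets. The brightest, whose suffix marks possible shared targets, read 7.47 in Yap+/+ and 8.14 in Yap+/-. The next, also with such a suffix, read 7.38 and 7.92. The third, without such a suffix, read 6.68 and 7.53, a difference of 0.85. The Yap+/- value was the higher one on each probe set, by at least 0.54, beside a disagreement of 0.17 between probe sets of a gene. All 3 read the same 2 pools, so their agreement does not show how much pools of a genotype vary. Cxcr2, the receptor found on neutrophils, read 4.29 and 4.31, where a change could be missed. Cxcl2, Cxcl3 and Cxcl5, which are among the further CXCR2 ligands, read between 2.85 and 3.20 on both arrays, close to the lowest value of the table, 2.49.

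Ccl5, also called RANTES, is made by T cells, natural killer cells and platelets among others and draws T cells and monocytes. It has a single probe set, at 6.52 in Yap+/+ and 7.14 in Yap+/-, and stood at rank 55 from the highest difference. Ccr1 and Ccr3, which are among its receptors, read 3.73 and 3.60 in the Yap+/+ pool against 3.80 and 3.72 in the Yap+/- pool, all under the median of the table.

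Unlike Ccl5, other inflammatory CC ligands that draw monocytes had means under the limit. Ccl2, the principal ligand of CCR2, read 5.02 in Yap+/+ and 5.07 in Yap+/-, and Ccl7 read 3.42 and 3.51. Ccl3 and Ccl4, the macrophage inflammatory proteins, read 3.60 and 5.85 in the Yap+/+ pool against 3.64 and 6.06 in the Yap+/- pool. At these means no fold is given.

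Ccl6 and Ccl9 are rodent CC chemokines of macrophages and myeloid cells that act through CCR1. Ccl9 read 11.47 in Yap+/+ and 11.46 in Yap+/-, and its second probe set 10.44 and 10.28. Ccl6 read 8.03 and 8.24 on its brighter probe set, 1.15-fold higher, and 6.33 and 6.20 on the other, which went the other way. Neither gene therefore showed a difference that its probe sets shared in direction and that exceeded 0.17 on both.

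The homeostatic ligands differed by 0.24 or less on their brightest probe sets. Cxcl12, which holds leukocytes and progenitors through CXCR4, read 10.43 in Yap+/+ and 10.32 in Yap+/-, and its other bright probe set 10.36 and 10.27. Cxcl16, a membrane-bound ligand that sinusoidal endothelium presents to CXCR6 on natural killer T cells, read 7.03 and 6.91, and 6.51 and 6.42 on its second probe set. Both genes were thus slightly lower in Yap+/- on all of their probe sets, by 0.16 or less.

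Cxcl13, which draws B cells through CXCR5, read 6.05 in Yap+/+ and 6.29 in Yap+/-, and its dimmer probe set 5.83 and 5.65, so the probe sets went opposite ways. Ccl25, a ligand of CCR9, did the same, at 6.15 and 6.37 on the brighter and 5.98 and 5.39 on the dimmer one. For these genes the direction depends on the probe set. Ccl24, an eosinophil attractant, read 6.71 and 6.63. Ccl27a, a ligand of CCR10, read 7.38 and 7.32 on a probe set that can bind near-identical copies of the gene, so its value is uncertain to that extent.

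**Figure D3:**
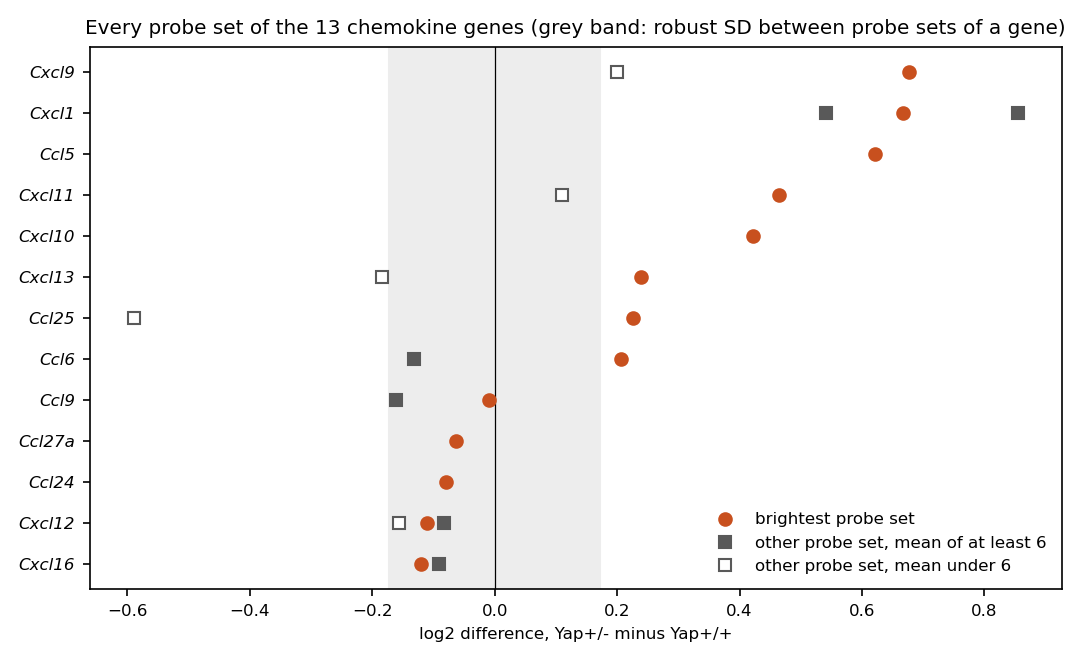
Log2 difference (Yap+/- minus Yap+/+) of every probe set of the 13 measured chemokine genes. Circles are the brightest probe sets, squares the others (open where their mean is under 6), and the grey band spans the robust SD of 0.17 between probe sets of a gene on either side of 0. All 3 probe sets of Cxcl1 lie right of the band, whereas those of Cxcl13, Ccl25 and Ccl6 lie on both sides of 0.

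Of 11 further probe sets of measured members, 8 went in the direction of the brightest. The 3 that did not belong to Ccl6, Ccl25 and Cxcl13, each with a difference between 0.21 and 0.24 on the brightest probe set. Cxcl1, Cxcl9 and Cxcl11 had no probe set that was lower in Yap+/-.

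Genes of the family lie in clusters. In RefSeq order on chromosome 5, Cxcl9, Cxcl10 and Cxcl11 lie next to each other around Art3, which is no chemokine gene and read 5.86 in Yap+/+ and 6.11 in Yap+/-. The 3 ligands were all higher in Yap+/-. Elsewhere on chromosome 5, Cxcl1 lies between Cxcl15, at 3.90 on both arrays, and Cxcl2, at 3.20 and 3.12. At these levels a small difference or a decrease could be missed. The same cluster holds the platelet chemokine genes Pf4 and Ppbp, outside the symbol rule, which differed by 0.29 and 0.72, Ppbp from under the limit. On chromosome 11, Ccl5 is followed by Ccl9 and Ccl6, with differences of -0.01 and 0.21. In the cluster of the monocyte attractants on chromosome 11, from Ccl2 to Ccl1, no gene had a mean of 6 and the differences ran from -0.09 for Ccl8 to 0.20 for Ccl1.

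**Figure D4:**
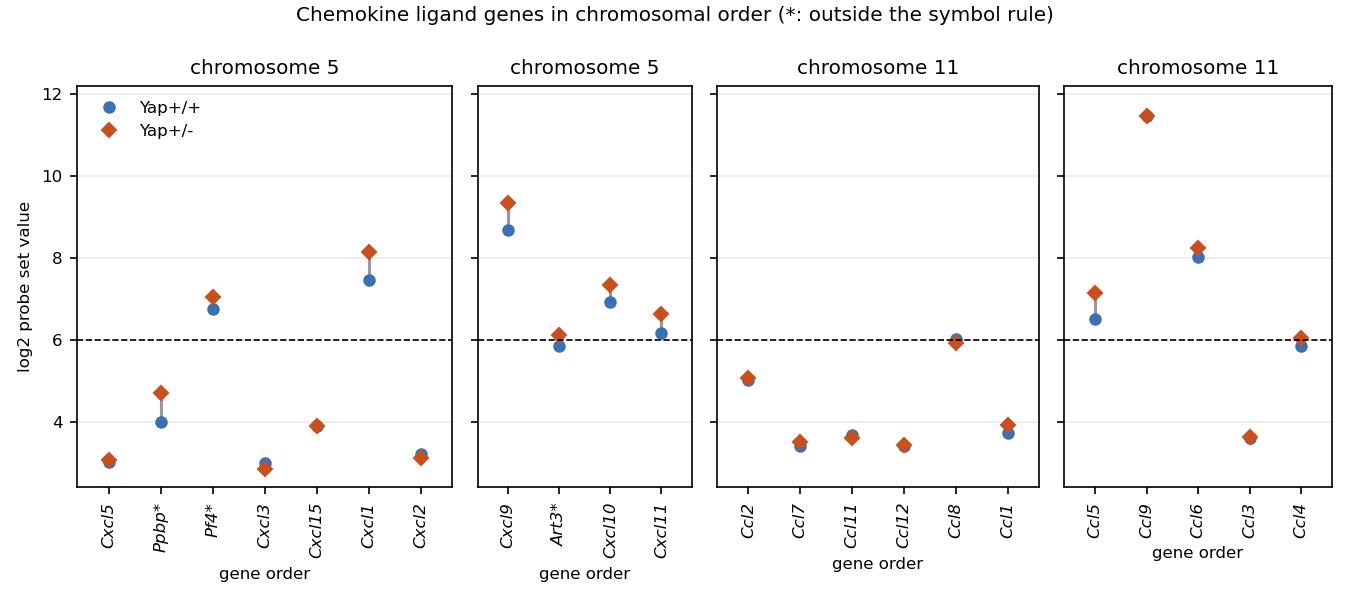
Log2 values in Yap+/+ (circles) and Yap+/- (diamonds) of chemokine ligand genes in the order of RefSeq on chromosomes 5 and 11; an asterisk marks genes outside the symbol rule and the dashed line is at 6. Cxcl9, Cxcl10 and Cxcl11 were all higher in Yap+/-, whereas the points of Cxcl15 and Cxcl2 beside Cxcl1, and of Ccl9 beside Ccl5, nearly coincide, those of Cxcl15 and Cxcl2 far under the line.

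Receptor transcripts were low throughout. The 16 receptors read between 3.32 and 5.79 in Yap+/+ and between 3.31 and 5.90 in Yap+/-, and 13 of them had a mean under the median of the table. As many were higher as lower, 8 each, and their median difference was -0.02. Ccr2, the receptor of inflammatory monocytes, read 5.79 and 5.90. Cxcr4, the receptor of CXCL12, read 3.32 and 3.33, and Cxcr6, the receptor of CXCL16, 3.79 and 3.65. The ligands of both were measured, whereas the receptor transcripts themselves are not shown to be above background. Cx3cr1, carried by monocytes and some macrophages, read 4.44 and 4.35, and its ligand Cx3cl1 read 5.52 and 5.43.

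The 20 ligands under the limit read between 2.99 and 6.02 in Yap+/+ and between 2.85 and 6.06 in Yap+/-, with 10 higher, 9 lower and 1 equal and a median difference of 0.01. Besides those named above they include Ccl20, the ligand of CCR6, at 4.82 and 4.89, and the mucosal chemokine Ccl28 at 5.60 and 5.58. Ccl11, the eosinophil attractant eotaxin, read 3.67 and 3.61. Ccl17, a ligand of CCR4, read 4.44 and 4.31, and Xcl1, which draws cross-presenting dendritic cells, 4.26 and 4.04. Their receptors Ccr6, Ccr4 and Xcr1 read 4.50, 4.05 and 3.54 in the Yap+/+ pool against 4.66, 4.18 and 3.50 in the Yap+/- pool. None of these ligand and receptor genes differed by more than 0.21, and all lay where background and signal were not separated.

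The largest differences among members under the limit were those of 2 receptors. Ccr8 read 3.73 in Yap+/+ and 3.31 in Yap+/-, and Ccr10 5.17 and 4.80. Cxcl14, a homeostatic epithelial chemokine, followed at 5.07 and 4.85. In the other direction were Ccl4, given above, Ccl1 at 3.74 and 3.93, and the dendritic cell ligand Ccl22 at 4.14 and 4.33. These values are not shown to be above background, and no fold is given.

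Genes around the chemokines were taken from 5 lists. Of the 5 atypical receptors, which bind and clear chemokines, 2 were measured. Ackr2, a scavenger of inflammatory CC chemokines, read 6.29 in Yap+/+ and 6.68 in Yap+/-, and Ackr1, found on venules and red cells, 6.28 and 6.24. The platelet chemokine Pf4 read 6.76 and 7.05, and its neighbour Ppbp, under the limit, 3.99 and 4.71. No gene of these 2 lists with a mean of 6 differed by 1.5-fold, against 0.699% of all measured genes higher and 0.645% lower. With so few genes measured this says little about the lists.

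Signalling genes downstream of the receptors were mixed. Of 23 listed, 14 were measured, of which 10 were higher and 4 lower, with a median difference of 0.06 and 0 higher and 1 lower by 1.5-fold, against 0.645% of all measured genes lower. That gene was Gnai1, an inhibitory G protein subunit, at 6.53 in Yap+/+ and 5.85 in Yap+/-, which counts as measured only through the array where it was high. Its relative Gnai2, the main form in leukocytes, went the other way at 9.62 and 9.88. The leukocyte GTPase Rac2 read 5.92 and 6.35, and the receptor kinase Grk5 6.35 and 5.76. Both, like Gnai1, reached a mean of 6 only through the array where they were high. The counts by direction and the median include all of them, so no direction of the list is read from these counts. The receptor adaptor Arrb2 read 7.26 and 7.49, and the receptor kinase Grk3 differed by -0.13.

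Of 12 genes of chemokine processing and presentation, 7 were measured, with a median of 0.03. By 1.5-fold 0 of the 7 differed, against 0.699% of all measured genes higher and 0.645% lower. At such shares a count of 0 says little about a list of this size. Dpp4, the peptidase that trims CXCL10 and CXCL12, read 10.20 in Yap+/+ and 10.27 in Yap+/-. The metalloprotease Mmp2 differed by 0.34 and the heparan sulphate proteoglycan Sdc4, which holds chemokines at cell surfaces, by 0.21. Ext2, which builds heparan sulphate, differed by -0.25.

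Among 21 inducers and transcriptional regulators of chemokine genes, 9 were measured, 6 higher and 3 lower, with a median of 0.11. Past 1.5-fold there were 0, against 0.699% of all measured genes higher and 0.645% lower, so this count says little about so short a list. Irf1, the interferon-responsive factor that acts on Cxcl9 and Cxcl10, read 8.72 in Yap+/+ and 8.92 in Yap+/-, the adaptor Myd88 8.13 and 8.33, and Irf7 7.46 and 7.64. On the lower side were Ikbkg at -0.15, Irf3 at -0.05 and Nfkbia, the NF-kappaB inhibitor, at -0.03. The cytokines that drive these pathways, named after their values were seen, were under the limit. Ifng read 3.13 and 3.09, Tnf 4.34 and 4.48, Il6 3.06 and 3.33, and Il1b 6.19 and 5.78, levels from which no direction is read.

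Markers of the cells that make or carry these genes also differed between the pools. In bulk liver, more cells of a type and more RNA per cell cannot be told apart. All 11 Kupffer cell and macrophage markers were measured and higher in Yap+/-, by 0.13 to 0.62, with a median of 0.33. Of all measured genes 48.8% were higher. The 13 chemokine genes had a median of 0.23 and ranged from -0.12 to 0.68. Their summed linear signal was 9862 in Yap+/+ and 12394 in Yap+/-. Marco, a scavenger receptor, read 7.30 and 7.92, Cd68 6.98 and 7.46, and Cd5l 11.23 and 11.67. None of the 11 was under the median of the table. Of 6 sinusoidal endothelial markers 5 were higher, against the same 48.8% of all measured genes. Their summed signal was 4170 and 4939, led by Fcgr2b at 9.97 and 10.33.

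Lymphocyte markers were low in both pools. Of 10 T and NK cell markers on the array only Gzma had a mean of 6, at 5.96 in Yap+/+ and 6.39 in Yap+/-. It reached this mean only through the Yap+/- array, where it was high. The summed signal of the list was 399 and 445. By direction 7 of the 10 were higher, 1 lower and 2 equal. The cytotoxic genes Gzmb and Nkg7 differed by 0.23 and 0.22, the cytokine receptor chain Il2rb by 0.40 and Cd8a by 0.13, all under the limit. The defining T cell genes Cd3d, Cd3e and Cd3g read 5.23, 5.85 and 4.60 in the Yap+/+ pool against 5.23, 5.93 and 4.44 in the Yap+/- pool. The 3 B cell markers on the array read between 3.95 and 5.24 on both arrays. Of 6 neutrophil markers S100a9 alone had a mean of 6, at 5.58 and 7.02, which it reached through the Yap+/- array, and the summed signal was 154 and 293, with 4 of the 6 under the median of the table. S100a8 read 4.36 and 5.95. Without this pair the summed signal of the other 4, of which Camp differed by -0.04, Ltf by 0.14, Elane by 0.26 and Ngp by 0.54, was 85.8 and 101. Monocyte and dendritic cell markers had a summed signal of 880 and 966, and 1 of 7, Lyz2 at 9.43 and 9.60, was measured.

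The remaining lists showed no common shift upwards. The 5 hepatocyte markers had a median difference of 0.02 and the 5 stellate cell markers of 0.00, with summed signals of 118648 and 120290, and of 3887 and 4014. The stellate cell markers were split, 3 higher and 2 lower, from Des at -0.41 to Pdgfrb at 0.31. The 4 bile duct markers were all under the limit, with a summed signal of 223 and 149, and Krt19 read 6.73 in Yap+/+ and 4.83 in Yap+/-. Without Krt19 the summed signal of the other 3 was 117 and 120.3, and Sox9 differed by 0.26. The part that any of these cell types has in the chemokine values was not tested.

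**Figure D5:**
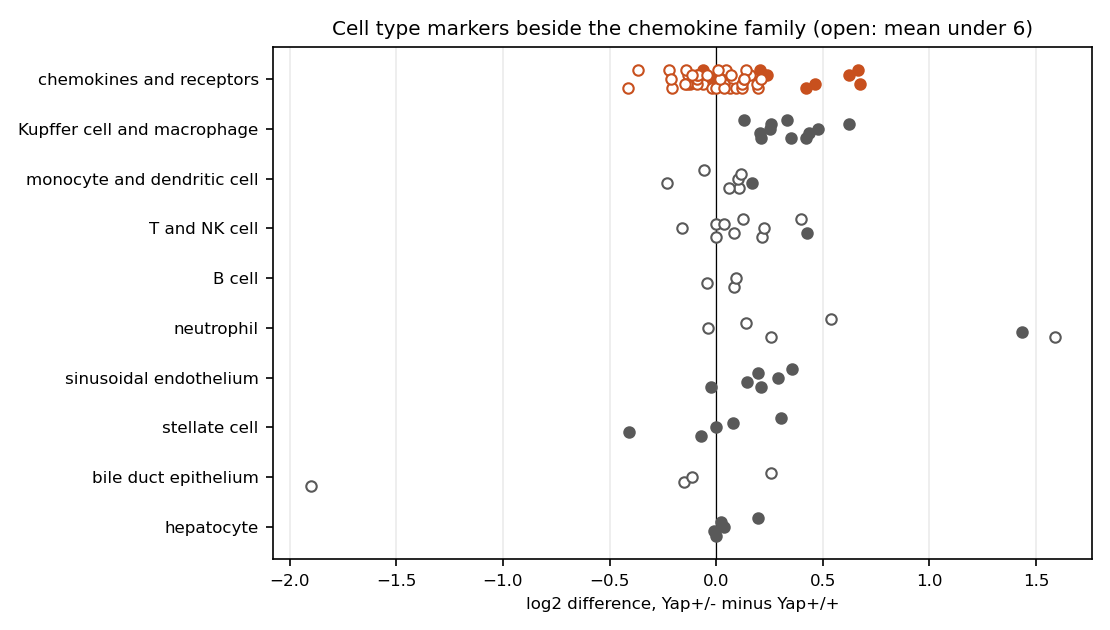
Log2 differences (Yap+/- minus Yap+/+) of the 49 chemokine family members (top) and of cell type markers, 1 point per gene, open where the mean of both arrays is under 6; the vertical offset within a list is for display. All 11 macrophage markers lie right of 0, the filled chemokine points spread from -0.12 to 0.68, and the open ones, receptors included, lie on both sides of 0.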

How the data were processed

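Per the submitters' processing notes, the authors used RMA and Partek 6.5, with no settings named, and deposited log2 probe set values for 2 arrays, 1 pool per genotype. The sorted columns differ by at most 0.047, as after quantile normalisation, which largely removes an overall difference in RNA. Probe sets were named from the supplied platform annotation. Of 45101, 64 were controls, 34945 had 1 symbol, 932 several and 9160 none. All 49 members' identifiers were found in RefSeq, with 0 symbols changed. Family symbols without a probe set of their own were not analysed here.

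With 1 pool per genotype, differences were described by size (2-fold and 1.5-fold) and no test was made. Having only 2 arrays limits the precision. Members and lists were chosen with earlier results of these data known. Named are all measured members, those nearest the limit of 6, the 3 largest differences in each direction below it with members of known liver role, and up to 3 measured genes per direction of each list (fewer where they differed least). The counting was tested on simulated data. Alternatives were other minimum levels, probe set choices, normalisations, a linear offset of 64 and a 3-fold threshold. Promoter windows are from RefSeq. Figures were drawn with matplotlib 3.10.9, the lowess trend was fitted with statsmodels 0.14.6, and other steps used pandas 2.3.3 and numpy 2.4.6 under Python 3.11.15.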

Additional observations from a re-analysis of the deposited data

Results flagged for a closer look

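Some probe sets of the family carry several gene symbols, some of them outside the symbol rule, and no comparison above uses them. Those with a Yap+/- value higher by more than the disagreement of 0.17 between probe sets of a gene were flagged, and lower values were not looked for. The share of all genes past 0.17 was not counted. Differences of this size are not rare, since Ccl25 at 0.23 stood only at rank 778 from the highest difference among 9299 measured genes. The probe set shared by the copies of Ccl21, a ligand of CCR7 that guides dendritic cells and T cells, also names 5 further symbols. It read 6.49 in Yap+/+ and 6.81 in Yap+/-, a difference of 0.32. The one that names Ccl19, the other CCR7 ligand, beside 9 further symbols read 6.68 and 6.94, a difference of 0.26. The 2 shared by Ccl27a and Ccl27b, each beside 3 further symbols, differed by -0.05 and 0.06. Ccr7 itself read 3.88 and 4.02.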

How the results depend on the processing

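The count of 0 members at 2-fold held under each of 8 alternatives, several of which could hardly have changed it. A 3-fold threshold could only give 0 again, and the added 64 shrinks differences. The sorted columns already differed by at most 0.047, so median centring and quantile normalisation could change little. The 3 members at least 1.5-fold higher, Cxcl9, Cxcl1 and Ccl5, were the same without a filter, with probe sets marked for shared targets left out, and after median centring, removal of a lowess trend or quantile normalisation. With 64 added on the linear scale 1 remained, Cxcl9, since the offset shrinks differences of dim probe sets, and 31 of all measured genes instead of 65. With a minimum mean of 7 there were 2, without Ccl5, and with the mean of all probe sets also 2, without Cxcl9. The median of the measured members, 0.23, was 0.019 without a filter, over 49 members, and -0.013 with the mean of all probe sets, over 10, and lay between 0.13 and 0.24 otherwise. Of 77 differences of single members under an alternative, 70 moved by less than 0.17 and 7 by more. Cxcl1 ranged from 0.52 to 0.85, Cxcl9 from 0.44 to 0.69 and Ccl5 from 0.40 to 0.64. No paired analysis was possible because each genotype has 1 pool. Without replicates, the spread between pools is unknown. The limit of 6 was a chosen one, the background level was not estimated, and values under 6 are not shown to be above it.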

Other observations

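Several receptor genes of the family lie together on chromosome 9, where a neighbour outside the family was well above the limit of 6. In RefSeq order, Ccr9, Cxcr6, Xcr1, Ccr1 and Ccr3 read between 3.54 and 4.01 in Yap+/+ and between 3.50 and 3.87 in Yap+/-. Fyco1, a gene of vesicle transport that lies between Ccr9 and Cxcr6, read 8.76 and 8.59. Ccr2, further along, read 5.79 and 5.90.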
